A study of Homo sapiens with 6 samples.

Results

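TXNIP, the 4 arrestin-domain genes ARRDC1 to ARRDC4, and the transcription factor pair MLXIP (MondoA) and MLX were described by their gene symbols. All 7 were found among 17202 genes, and all 7 passed the filter on low values. DND41 is an established line from human T-cell acute lymphoblastic leukaemia. The compared libraries were 3 of DND41 cells given MB1-47, which the series title calls a mitochondrial uncoupling drug, and 3 of DND41 cells given DMSO. Every culture was kept for 24 h in RPMI with 10% FBS, and the labels write the dose of MB1-47 as 4 mM, a unit that was not checked. A mitochondrial uncoupler lets protons flow back across the inner membrane without ATP being made.

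Alpha-arrestins are adaptor proteins with an arrestin fold. Most carry PPxY motifs that recruit ubiquitin ligases of the NEDD4 family to membrane proteins, which are then taken into the cell. TXNIP and ARRDC4 limit glucose uptake through the glucose transporters, and TXNIP also binds and inhibits thioredoxin. MondoA pairs with MLX, senses glucose 6-phosphate and related sugar phosphates, and drives TXNIP and ARRDC4 through paired E-box-like elements in their promoters. Inhibitors of oxidative phosphorylation have been described to lower TXNIP transcripts in other cells.

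The promoters of 5 of the genes are shown because MondoA with MLX, and FOXO factors, are known to act on TXNIP through short sequences just before its start. The sequences are from RefSeq on GRCh38.p14, where all 7 genes matched by symbol with 10 promoter windows of 300 bases. Each stretch reads 5′ to 3′ on the gene's strand. In the TXNIP, ARRDC4, MLX and ARRDC2 lines the capitals mark every CACGNG core on either strand, a core that includes the E-box CACGTG. In the TXNIP and ARRDC3 lines capitals also mark GTAAACA, a FOXO motif, on either strand. The stretches for TXNIP, ARRDC4, MLX and ARRDC2 end before the first exon of the gene in GENCODE 29, and the ARRDC3 stretch lies before a second RefSeq start, inside an exon annotated by GENCODE.
TXNIP, chr1:145996601-145996762, minus strand: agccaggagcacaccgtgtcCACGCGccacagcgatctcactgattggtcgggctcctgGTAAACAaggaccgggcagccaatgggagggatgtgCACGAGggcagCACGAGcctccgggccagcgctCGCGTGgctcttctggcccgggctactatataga
ARRDC4, chr15:97960473-97960643, plus strand: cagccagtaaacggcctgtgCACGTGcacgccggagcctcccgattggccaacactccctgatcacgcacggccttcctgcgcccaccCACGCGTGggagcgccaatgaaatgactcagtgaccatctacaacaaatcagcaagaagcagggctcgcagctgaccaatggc
MLX, chr17:42567020-42567067, plus strand: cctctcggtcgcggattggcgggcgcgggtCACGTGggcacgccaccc
ARRDC2, chr19:18001055-18001116, plus strand: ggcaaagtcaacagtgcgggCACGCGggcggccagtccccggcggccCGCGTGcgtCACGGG
ARRDC3, chr5:91380109-91380137, minus strand: agcccggcactTGTTTACcacggcgcggc

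TXNIP was the only one of the 7 genes with a pair of CACGNG cores spaced as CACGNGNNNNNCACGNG. The first core of the pair began 88 bases before the start. That spacing occurred in 20 of 35116 promoter windows, or 0.057%, searched on both strands, while a single CACGNG core occurred in 30.5% of them. The motifs were chosen after these promoters were seen, so the rarity of the pair is a description and no test. ARRDC4 had CACGNG cores but none in this exact spacing, and looser pairs were not searched. The E-box CACGTG was found 210 bases before the ARRDC4 start and 50 bases before the MLX start, and in 7.26% of all windows. GTAAACA lay 124 bases before the TXNIP start and 29 bases before the second ARRDC3 start, and in 3.42% of all windows. A CCAAT box occurred in 7 of the 10 windows and in 34.6% of all windows, as the letters CCAAT on either strand. These matches describe letters and do not show binding.

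With MB1-47, 3 of the 5 alpha-arrestin transcripts were higher, ARRDC3 most, then ARRDC2 and TXNIP. ARRDC1 and ARRDC4 did not pass the test. MLX was lower and MLXIP did not pass. Over all 13465 genes tested, 38.1% passed in either direction, 18.3% higher and 19.8% lower, and the 4 calls among the 7 genes are a description of these genes beside that background. Giving all libraries equal totals made the calls over all genes 3336 higher and 2061 lower in place of 2458 and 2667, and moved the median change of all genes from 0.02 to 0.15. Values are normalized counts as deposited, each change is the mean difference, MB1-47 minus DMSO, on the log2(value + 1) scale ± SE, and adjusted p-values are from limma with Benjamini-Hochberg adjustment over all tested genes.

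**Figure D1:**
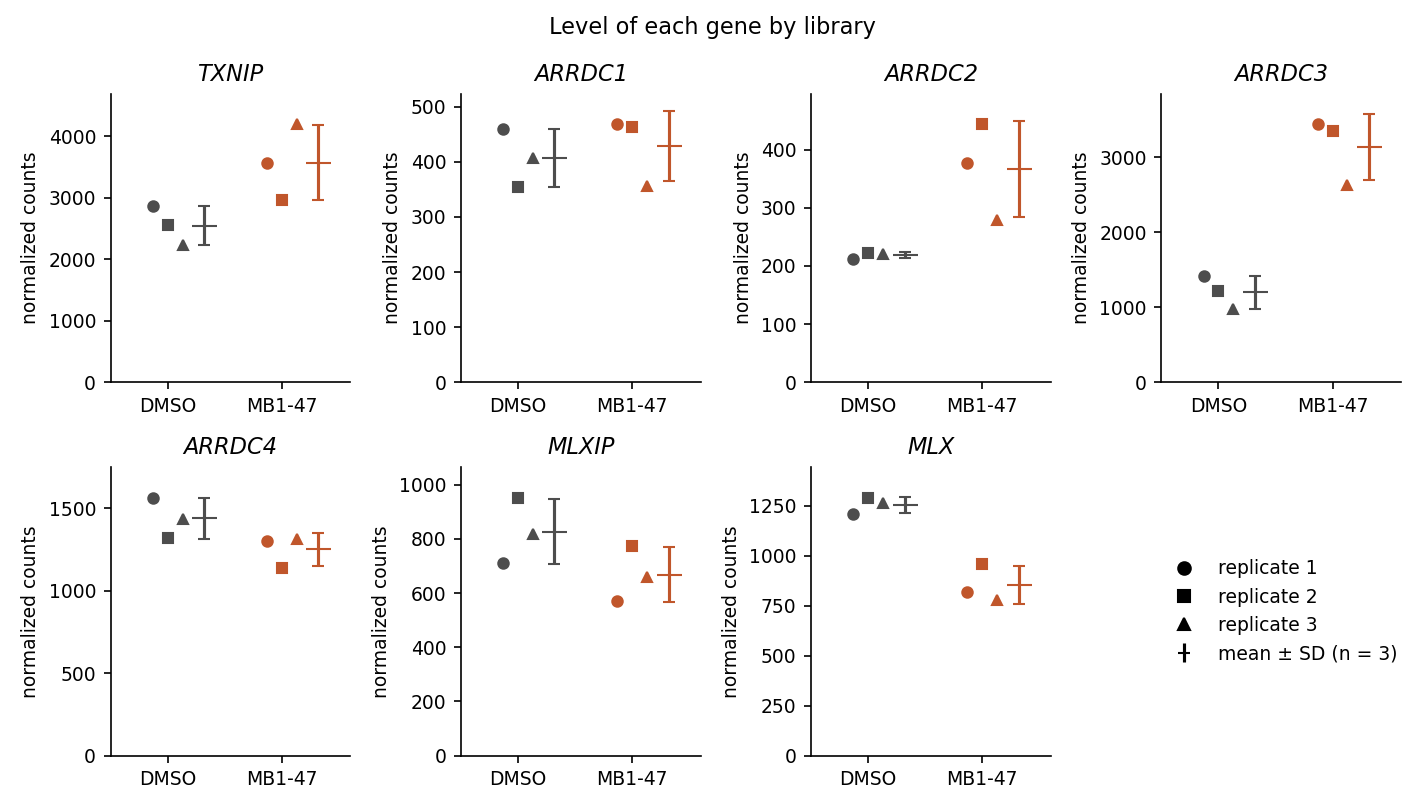
Normalized counts (y axis, from 0) of each of the 7 genes in the 3 DMSO and 3 MB1-47 libraries, with replicates as symbols and the mean ± SD (n = 3) beside them. The ARRDC3 libraries with MB1-47 lie at 2633 or above and those with DMSO at 1412 or below, while the ARRDC1 and MLXIP groups overlap.

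TXNIP (ENSG00000265972.5) lies on chromosome 1 from 145992435 to 145996600, minus strand, and its longest coding transcript has 8 exons. Its level was 2860, 2557 and 2223 normalized counts in DMSO replicates 1, 2 and 3. With MB1-47 it was 3559, 2967 and 4192. Every MB1-47 library was above every DMSO library, but the lowest with MB1-47 exceeded the highest with DMSO only narrowly. The mean went from 2547 ± 318 to 3573 ± 613 (SD, n = 3), a ratio of 1.40, and the log2 change was 0.48 ± 0.14 (95% interval 0.18 to 0.78, adjusted p = 0.0170). Groups that did not overlap were found for 5 of the 7 genes and for 49.3% of all tested genes, with MB1-47 above in 24.1% and below in 25.2%. The TXNIP call was lost without DMSO replicate 3 (0.39, adjusted p = 0.0780), without MB1-47 replicate 3 (0.36, adjusted p = 0.0756) and in limma without an intensity trend (adjusted p = 0.0862); over 15 alternative settings the adjusted p ran from 0.00368 to 0.0862.

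ARRDC3 (ENSG00000113369.8, chromosome 5 from 91368724 to 91383359, minus strand) encodes an adaptor known for directing the beta2-adrenergic receptor and integrin beta4 to degradation. It stood at 1412, 1210 and 975 in DMSO replicates 1 to 3. With MB1-47 it stood at 3435, 3342 and 2633. All 3 MB1-47 libraries were far above the DMSO libraries, with no overlap. The ratio of means was 2.62, and the log2 change was 1.39 ± 0.15 (95% interval 1.06 to 1.73, adjusted p = 3.9e-05), larger than that of 95.8% of tested genes. The change passed the threshold in all 15 alternative settings, between 1.25 and 1.52. The lincRNA ARRDC3-AS1 overlaps the gene on the other strand by 3011 bases; whether the authors' counting used strand is not given in the sources used here.

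ARRDC2 (ENSG00000105643.9, chromosome 19 from 18001132 to 18014102, plus strand), the least abundant of the 5 alpha-arrestins per length, is a less studied member of the family. It measured 213, 222 and 221 normalized counts in the DMSO libraries, which lay close together. The MB1-47 libraries measured 377, 443 and 279 and were spread more widely, with all 3 above DMSO. The mean went from 219 ± 5.08 to 366 ± 82.7, a ratio of 1.68, with a log2 change of 0.72 ± 0.22 (adjusted p = 0.0223). The ARRDC2 call was lost without DMSO replicate 3 (adjusted p = 0.0532), MB1-47 replicate 1 (0.0672) or MB1-47 replicate 2 (0.0940); over 15 settings the adjusted p ran from 0.0104 to 0.0940. Among the MB1-47 libraries, replicate 3 had the lowest ARRDC2 and ARRDC3 and the highest TXNIP. Whether these genes vary together within the treated group was not tested.

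ARRDC4 (ENSG00000140450.8, chromosome 15 from 97960698 to 97973838, plus strand) is, with TXNIP, the best known MondoA target among the arrestins. Its levels were 1563, 1319 and 1433 with DMSO. They were 1303, 1137 and 1311 with MB1-47. The MB1-47 values lay below the DMSO values, with almost no gap between the highest treated and the lowest control library. The log2 change was -0.20 ± 0.12, with a 95% interval from -0.46 to 0.06 and an adjusted p of 0.211. ARRDC4 did not pass in any of the 15 alternative settings (adjusted p 0.151 to 0.625).

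ARRDC1 (ENSG00000197070.13, chromosome 9 from 137605654 to 137615360, plus strand) is known for driving the budding of small vesicles from the plasma membrane together with TSG101. Its values were 460, 355 and 407 with DMSO and 468, 464 and 356 with MB1-47. The groups overlapped, and the change of 0.07 ± 0.18 had a 95% interval from -0.34 to 0.48 (adjusted p = 0.793), which leaves room for a change of either sign. Without DMSO replicate 2 the change was -0.02. The transcript gene AL590627.2 overlaps ARRDC1 on the same strand by 9617 bases and was not analysed here; how the authors counted reads that both could give is not stated. ARRDC1-AS1 overlaps it on the other strand by 29 bases.

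**Figure D2:**
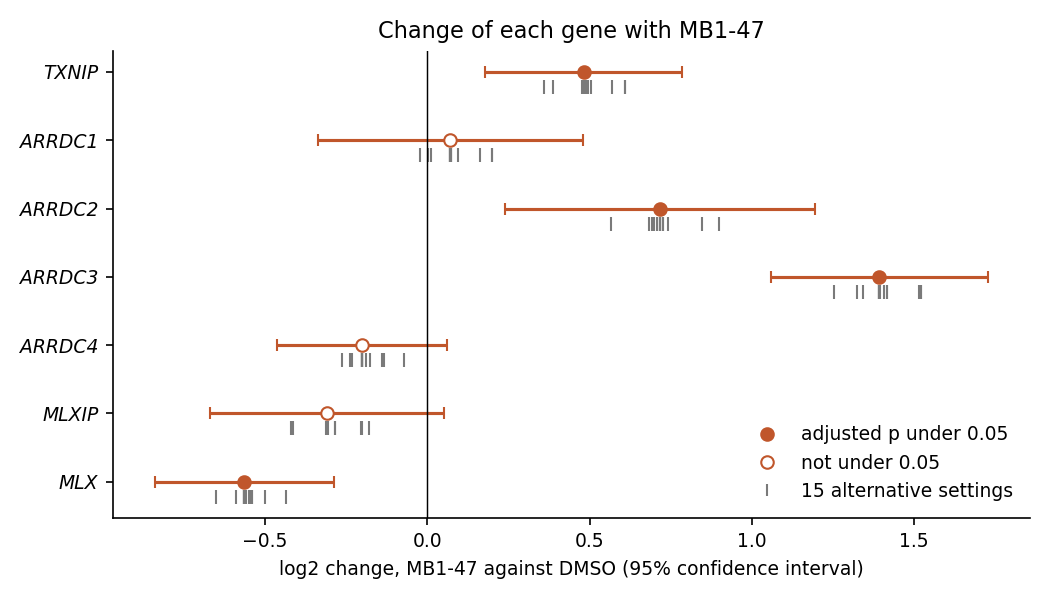
Log2 change with MB1-47 against DMSO (x axis) for the 7 genes, with 95% confidence intervals from limma; filled points had an adjusted p under 0.05 and grey ticks show 15 alternative settings. ARRDC3 has the largest change at 1.39 and MLX the lowest at -0.56, and the ticks of ARRDC1 lie on both sides of 0.

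Of the heterodimer MLX was lower, and MLXIP did not pass. MLX (ENSG00000108788.11, chromosome 17 from 42567068 to 42573239, plus strand) is the obligate DNA-binding partner of MondoA. It was at 1211, 1290 and 1267 with DMSO and at 821, 961 and 777 with MB1-47. The groups were well separated, with all treated libraries below the controls. MLX changed by -0.56 ± 0.13 (adjusted p = 0.00446), and the call held in all 15 settings (adjusted p 0.00314 to 0.0243). PSMC3IP on the other strand overlaps the MLX gene by 925 bases and averaged 197 with DMSO and 163 with MB1-47.

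MLXIP (ENSG00000175727.13, chromosome 12 from 122078722 to 122147347, plus strand), which encodes MondoA, had 710, 951 and 819 normalized counts with DMSO. With MB1-47 it had 570, 772 and 660. The ranges overlapped, and the change of -0.31 ± 0.16 did not pass (95% interval -0.67 to 0.05, adjusted p = 0.165). Its paralogue MLXIPL (ChREBP), the main glucose sensor of liver, was below the filter, at 27.8, 2.99 and 11.1 with DMSO and at 4.29, 0.745 and 1.17 with MB1-47. MLXIP was thus the more abundant of the 2 sensor transcripts in every library, on the scale of normalized counts that does not correct for length.

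Levels can be compared between genes only per length, here as normalized counts per kb of the longest coding transcript in GENCODE 29. With DMSO the order was TXNIP (870 ± 109 per kb), MLX (486 ± 15.7), ARRDC4 (353 ± 29.99), ARRDC3 (286 ± 52.3), ARRDC1 (257 ± 33.2), MLXIP (98.1 ± 14.3) and ARRDC2 (86.5 ± 2.01). The ranges of ARRDC4 and ARRDC3, of ARRDC3 and ARRDC1, and of MLXIP and ARRDC2 overlapped. Within each DMSO library ARRDC4 was above ARRDC3, and MLXIP above ARRDC2, though barely in replicate 1 (84.3 and 84.1 per kb). ARRDC3 was above ARRDC1 in DMSO replicates 1 and 2 and below it in replicate 3 (233 and 257 per kb). These differences between genes were not tested. With MB1-47 ARRDC3 moved to the second place at 749 ± 105 per kb, behind TXNIP at 1221 ± 209, with no overlap between them or between ARRDC3 and MLX (330 ± 37.1). ARRDC4 (307 ± 24.1) overlapped its neighbours MLX and ARRDC1 (271 ± 39.9), and ARRDC2 (145 ± 32.7) stood above MLXIP (79.2 ± 12.01).

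The make-up of the alpha-arrestin transcripts shifted toward ARRDC3. ARRDC3 held 16.3%, 16.1% and 13.8% of the summed level per kb of the 5 genes in DMSO replicates 1 to 3. It held 29.3%, 31.2% and 23.1% in the MB1-47 libraries, all above the controls. The share of ARRDC4 was 19.1% ± 1.51 with DMSO and 11.4% ± 0.467 with MB1-47, and that of ARRDC1, whose level did not pass, was 13.9% ± 1.37 and 10.1% ± 1.63, both without overlap. A share falls when the sum of the 5 genes rises, so these shares are no sign of a lower level. TXNIP stayed the largest share in each library, at 46.9% ± 1.81 and 45.3% ± 6.73. Summed per kb, the 5 genes came to 1853 ± 198 in the DMSO group and to 2693 ± 123 in the MB1-47 group (SD, n = 3). These shares describe transcripts and rest on 1 transcript length for each gene.

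**Figure D3:**
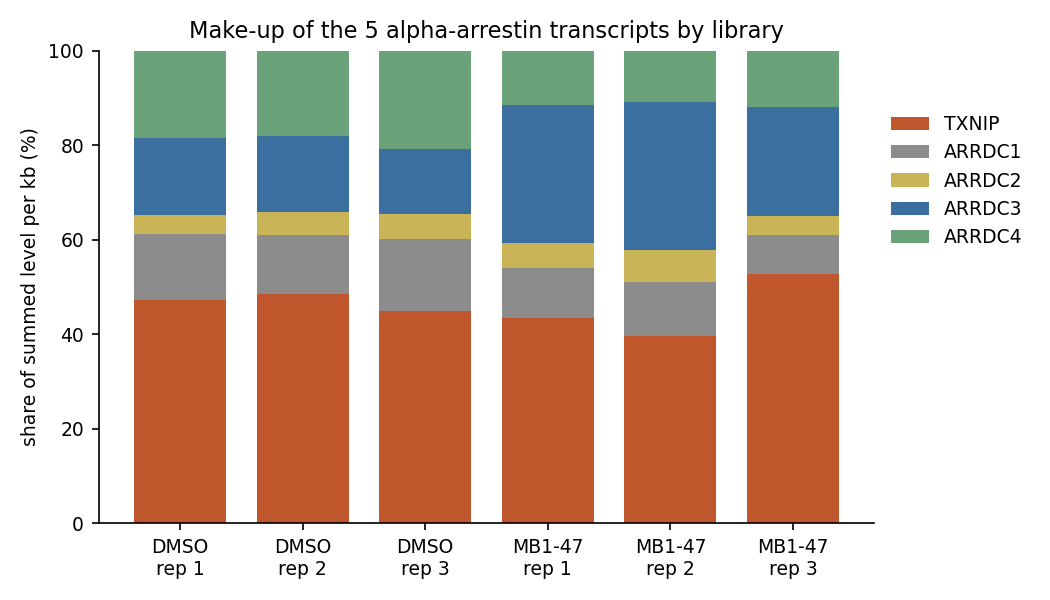
Share (%, y axis) of each alpha-arrestin in the summed level per kb of 5 genes, 1 bar for each library. The ARRDC3 segment spans 13.8% to 16.3% with DMSO and 23.1% to 31.2% with MB1-47, and the ARRDC4 segment is narrower in all MB1-47 libraries.

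Ratios within a library do not depend on how libraries were scaled, and 5 of them were compared with an exact two-sided permutation test over the 20 ways to split the libraries. The smallest p that 3 against 3 can give is 0.1, so none could pass 0.05. Each ratio is of normalized counts without a correction for length, so only its difference between the groups is read. ARRDC4 to TXNIP was 0.547, 0.516 and 0.644 with DMSO and 0.366, 0.383 and 0.313 with MB1-47, a log2 difference of -0.68 (exact p = 0.1, 0.125 adjusted over the 5 ratios). The groups of this ratio, which sets the best known MondoA targets against each other, did not overlap. ARRDC3 to ARRDC4 was 0.904, 0.917 and 0.680 with DMSO and 2.64, 2.94 and 2.01 with MB1-47, a log2 difference of 1.59 (exact p = 0.1, adjusted 0.125). ARRDC3 to TXNIP differed by 0.91 on the log2 scale (exact p = 0.1, adjusted 0.125) without overlap. MLXIP to MLX differed by 0.25, with overlap (exact p = 0.2, adjusted 0.2).

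TXNIP rose while its binding partner thioredoxin fell. TXN was at 5265, 4754 and 5365 normalized counts with DMSO and at 1773, 1624 and 1798 with MB1-47 (-1.57 ± 0.09, adjusted p = 8.6e-07). The ratio of TXNIP to TXN was 0.543, 0.538 and 0.414 in the DMSO libraries and 2.01, 1.83 and 2.33 in the MB1-47 libraries. These are normalized counts without a correction for length. Per kb the mean of TXNIP stayed below that of TXN, at 870 and 5901 with DMSO and at 1221 and 1993 with MB1-47. The groups of the ratio were far apart, by 2.05 on the log2 scale or 4.13-fold (exact two-sided permutation p = 0.1, adjusted 0.125). Most of that distance came from the fall of TXN, whose log2 change was larger in size than that of TXNIP. Among 21 tested genes of the thioredoxin system limma called 11 lower and 0 higher (1 higher at an unadjusted p under 0.05). Their median was -0.59, against 0.02 for all tested genes, of which 19.8% were lower and 18.3% higher, and 10 did not pass. With equal library totals, or without an intensity trend, 1 of them was higher. The list also holds glutaredoxins, so its count is not of thioredoxin and its direct partners alone. GLRX2 (-0.66), GLRX3 (-0.79) and GLRX5 (-0.42) were among the lower genes and GLRX did not pass (named to complete the count). PRDX1, a peroxiredoxin that thioredoxin reduces, changed by -2.18 ± 0.09, and PRDX4 of the endoplasmic reticulum by -1.72 ± 0.12.

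Glucose uptake and phosphorylation genes, the step that alpha-arrestins and MondoA bear on, were lower or did not pass. Limma called 8 of 15 tested genes lower and 0 higher (0 higher at an unadjusted p under 0.05, and 2 called higher with equal library totals). The median was -0.39, and over all tested genes 19.8% were lower and 18.3% higher. SLC2A1, which encodes the transporter GLUT1 that TXNIP removes from the surface, measured 2697, 2387 and 2503 with DMSO and 1022, 1237 and 1024 with MB1-47 (-1.21 ± 0.12, adjusted p = 1.5e-05). SLC2A3, which encodes GLUT3, measured 1653, 1574 and 1698 with DMSO and 1860, 1757 and 2043 with MB1-47 (0.20 ± 0.10, adjusted p = 0.161). The 2 transporter transcripts thus moved differently, SLC2A3 not passing except with equal library totals (0.33, adjusted p = 0.0200; range over 15 settings 0.0200 to 0.415). HK2, the inducible hexokinase that makes glucose 6-phosphate, fell from 5960 ± 214 to 2358 ± 63.7 (-1.34 ± 0.08). GPI, which turns glucose 6-phosphate into fructose 6-phosphate, changed by -1.36 ± 0.09.

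Of 13 tested genes outside the 7 that are described as MondoA or ChREBP targets, 7 were lower and RGS16 (0.30, named to complete the count) was higher, beside 19.8% lower and 18.3% higher over all tested genes. HK2 is among the lower ones and was also counted with the glucose genes, so the 2 counts are not separate. Their median was -0.61, and 5 did not pass. RGS16, a regulator of G-protein signalling, was not called when any 1 library was left out, which gave a count of 0 higher in each case. KLF10, a repressor induced by sugar through these factors, fell from 289 ± 26.7 to 91.5 ± 22.5 normalized counts (-1.67 ± 0.26). LDHA (-1.88 ± 0.09) and FASN (-1.66 ± 0.09), of lactate and fatty acid synthesis, were also lower.

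In the MAX and MLX network, 4 MXD-family antagonists of MYC, and MAX, were higher and MYC lower, while the remaining 2 of 8 tested genes did not pass (median 0.34, beside 18.3% called higher over all tested genes). MAX passed narrowly (0.25 ± 0.09, adjusted p = 0.0499886), and the count of 5 higher was 4 with a pseudocount of 0.5, without a filter, without a trend, and without DMSO replicate 2 or 3. MXD3 was at 191, 217 and 208 with DMSO and at 571, 807 and 663 with MB1-47 (1.71 ± 0.19), and MXD4 (1.44 ± 0.15) and MXI1 (1.01 ± 0.17) were also higher. These repressors pair with MAX, and MXD4 can also pair with MLX. MYC changed by -0.89 ± 0.11. The count of higher genes was 3 without MB1-47 replicate 1 or 3, and that of lower genes was 2 without DMSO replicate 1 or MB1-47 replicate 3 and with a filter at 50.

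**Figure D4:**
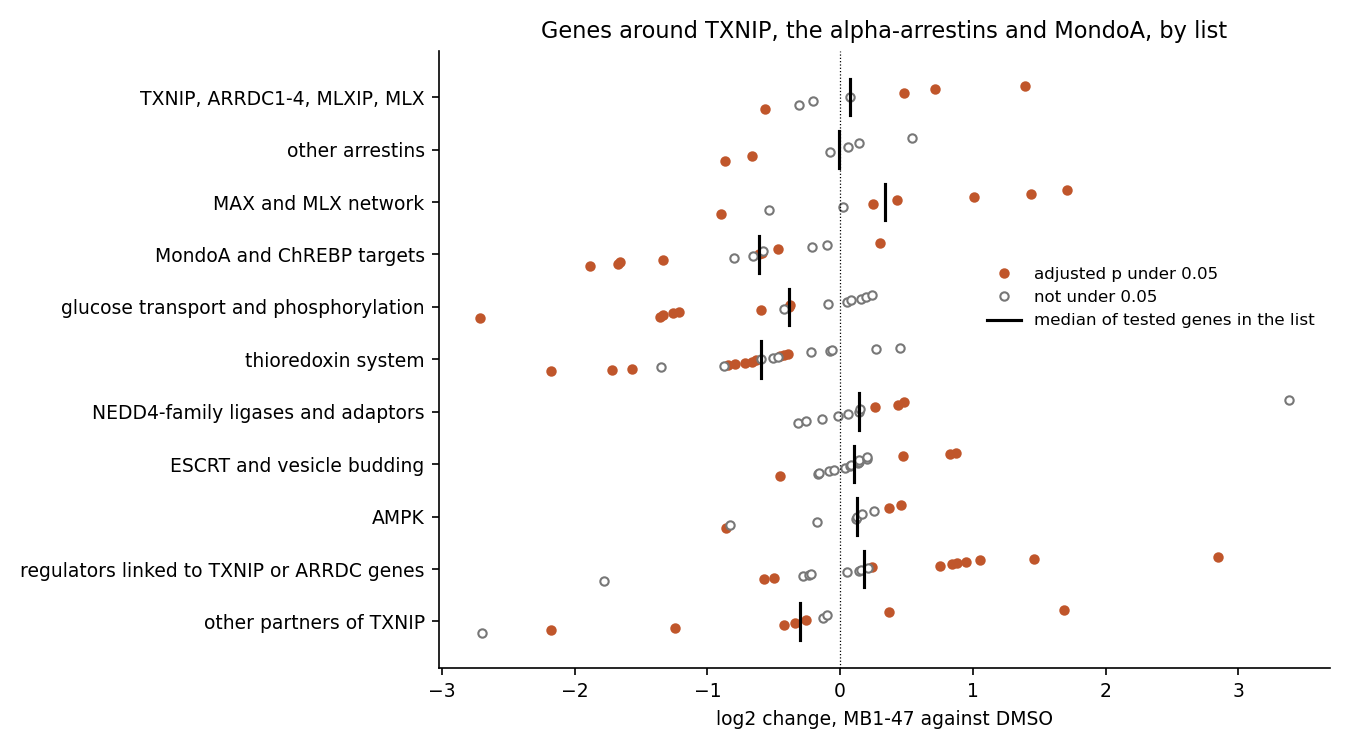
Log2 change with MB1-47 against DMSO (x axis) of each tested gene, by gene list (y axis), with filled points for an adjusted p under 0.05 in limma and a black bar at the median of the list. Thioredoxin system genes centre at -0.59, while the medians of the NEDD4-family, ESCRT and AMPK lists lie between 0.11 and 0.14.

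Limma called 3 of 11 genes for NEDD4-family ligases and their adaptors higher and 0 lower (0 lower at an unadjusted p under 0.05), with a median of 0.14, beside 38.1% of all tested genes called in either direction. ITCH, the ligase known to degrade TXNIP, rose by 0.44 ± 0.12 on the log2 scale (adjusted p = 0.0142, between 0.00147 and 0.0878 in the 15 settings), and its adaptors NDFIP1 and NDFIP2 by 0.48 ± 0.09 and 0.26 ± 0.08. The count of 3 dropped to 1 without DMSO replicate 2, DMSO replicate 3 or MB1-47 replicate 1, and in limma without a trend, where the calls of ITCH and NDFIP2 were lost; NDFIP2 was also not called without MB1-47 replicate 3. The 16 ESCRT and vesicle budding genes held 3 higher and 1 lower (median 0.11), with 3 of 16 close to the 18.3% called higher over all tested genes. VPS37A (0.87 ± 0.11), MVB12B (0.83 ± 0.24) and TSG101 (0.47 ± 0.14) were the higher genes and encode ESCRT-I subunits, while 5 other ESCRT-I genes of the list (VPS28, VPS37B, VPS37C, MVB12A and UBAP1, between -0.16 and 0.21) did not pass. HGS (-0.45, named to complete the count), which recruits ESCRT-I to endosomes, was the lower one. Without DMSO replicate 3 or MB1-47 replicate 1, 1 ESCRT gene was higher and 0 lower (also 0 lower with equal library totals), and TSG101 was also not called without DMSO replicate 2, without MB1-47 replicate 2 or without a trend (adjusted p 0.00751 to 0.0886 over the 15 settings, missed in 5).

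AMPK phosphorylates TXNIP and so speeds its loss. Among 9 tested genes of AMPK subunits and upstream kinases, 6 did not pass (median 0.12), and the 3 calls are close to the share of 38.1% over all tested genes. PRKAG1 (0.46 ± 0.11) and PRKAB2 (0.37 ± 0.11), regulatory subunits, were higher and CAMKK2 (-0.86 ± 0.10), an upstream kinase, was lower. The count of higher genes was 1 without DMSO replicate 3, MB1-47 replicate 1 or MB1-47 replicate 3, and 5 with equal library totals. PRKAB2 was called in no fit without DMSO replicate 3 or without any 1 MB1-47 library (adjusted p up to 0.0871).

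Factors described to act on TXNIP or an ARRDC gene were higher in 8 of 18 tested cases and lower in 2, with a median of 0.18, beside 18.3% higher and 19.8% lower over all tested genes. NR3C1, the glucocorticoid receptor, was at 16706, 12976 and 14966 with DMSO and at 29190, 24276 and 28516 with MB1-47 (0.88 ± 0.11, adjusted p = 7.5e-05). FOXO1 (0.84 ± 0.19) and FOXO4 (1.05 ± 0.27, not called in limma without a trend, adjusted p = 0.0660), forkhead factors that bind GTAAACA, were higher. FOXO3, the most abundant FOXO in normalized counts without a correction for length (3706 with DMSO, 4271 with MB1-47), did not pass (0.21 ± 0.10, adjusted p = 0.121), and its groups overlapped. ERN1 (2.84 ± 0.14) and EIF2AK3 (1.46 ± 0.16), which encode the stress sensors IRE1 and PERK of the endoplasmic reticulum, were also higher. The lower factors, named to complete the count, were NFYA (-0.49 ± 0.09) and EZH2 (-0.58 ± 0.08). Further partners of TXNIP gave 2 higher and 5 lower among 10 tested (median -0.30), beside 18.3% and 19.8% over all tested genes. PRDX1 is among the lower ones and was also counted with the thioredoxin system. CDKN1B, the cell cycle inhibitor p27, which TXNIP is described to stabilise, rose from 2162 ± 161 to 6945 ± 151 (1.69 ± 0.09), and PRMT1, an arginine methyltransferase, changed by -1.24 ± 0.14. The count of higher partners was 1 without MB1-47 replicate 3, and that of lower partners 3 in limma without a trend. Among 6 other tested arrestin-fold genes the beta-arrestins ARRB1 (-0.87 ± 0.13) and ARRB2 (-0.66 ± 0.12) were lower and 0 were higher in limma (0 higher at an unadjusted p under 0.05).

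The genes whose profile over the 6 libraries was most like each alpha-arrestin were found by the smallest root mean square difference of log2 values, each taken relative to the gene's DMSO mean. For TXNIP these were KLHL5 (0.06), ABRAXAS1 (0.07) and BICRAL (0.07). For ARRDC3 they were RETREG1 (0.12), TIFA (0.14) and KCTD7 (0.16), which were further from it. For ARRDC2 they were ZC3H11B (0.08), PINK1 (0.09) and LZTFL1 (0.11). CDK1 (0.02) and CCNA2 (0.03), which drive the cell cycle, were among the 3 nearest to ARRDC4. ARRDC1 was nearest to TCF7L2, MEMO1 and HSD17B7, MLXIP to TCHP, TPCN2 and KDM2B, and MLX to DDX12P, ILDR2 and MLLT1. The nearest genes differed for each of the 7. The distance includes the size of the change, so different neighbours are likely for members with unlike changes and are no result.

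The labelled cell type was checked on its markers. Of 14 T-lineage markers 13 were in the table, and their summed value ran from 89270 to 92224 with DMSO and from 55689 to 62913 with MB1-47. Of these 13, 6 were lower and 0 higher, beside 19.8% lower and 18.3% higher over all tested genes. CD5 and CD2 were among the lowest, at means of 9.31 and 49.2 with DMSO. Of 6 myeloid markers 2 were in the table, both below the filter, with a summed value of at most 22.9 in any library. Of 6 B-cell markers 4 were in the table, summing to 15970 to 17118 with DMSO and 6431 to 7128 with MB1-47, nearly all of it CD79A. Of 7 erythroid and stromal markers 3 were in the table, summing to 1003 to 1513 with DMSO and 530 to 649 with MB1-47, where PECAM1, an adhesion molecule of endothelium that leukocytes also carry, was lower (-1.003 ± 0.18, adjusted p = 0.00099). The part of these marker changes in the results above was not tested, and fewer cells of a state and less RNA per cell cannot be told apart in bulk RNA. Library totals of the deposited values were 30788200 to 32667500 with DMSO and 28323700 to 29673900 with MB1-47, without overlap. If the commonest low value of a library stands for 1 read, TXNIP had 2210 to 3985 reads in the libraries.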

How the data were processed

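RNA-seq of 6 DND41 libraries was used, 3 for each group; per the labels' protocols RNA was extracted with spin columns and libraries were strand-specific. The authors deposited normalized counts, per the labels, which were handled as a signal. Kallisto 0.44.0, DESeq and GRCh38.p13 are named in the submitters' processing notes; which annotation and filters were applied is not given in the sources used here. Between 43.9% and 55.6% of the low values fell within 0.05 of whole multiples of the library's step, so whole reads were not recovered and no count test was run. The labels say only that cells were plated in triplicate, so the spread that p-values rest on is that of these libraries and may be technical.

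Genes with a mean of at least 10 were tested on log2(value + 1) with limma 3.58.1 in R 4.3.3, with an intensity trend, no block, and a threshold of 0.05 on Benjamini-Hochberg adjusted p-values. No pair of libraries shared a value above 0 in any gene, so none was counted as a duplicate. Gene positions and lengths are from GENCODE 29 and promoters from RefSeq. Tested on data simulated for MB1-47 against DMSO (13465 genes, 200 of them changed), the fit recovered 28.4% of genes changed 1.5-fold, 53.7% changed 2-fold and 75.3% changed 4-fold. Of its calls 3.57% were unchanged genes. In the real data 38.1% of genes were called, far more than were changed in the simulation. The adjusted threshold depends on that share, so these rates check the fit and do not give its power in the real comparison. Python 3.11.15 and matplotlib 3.10.9 made the figures.

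Members and lists were chosen with earlier results of these data known, and the motifs after the promoters were seen. Lists are described by counts and medians. Named genes were the 7 members, 9 further genes in any case, in each list up to 3 genes of largest change that passed and averaged 50 or more, and the 3 genes with a mean of at least 100 nearest in profile to each member; genes named to complete a count are marked. Of the genes this rule picks, 2 are not reported here.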

Additional observations from a re-analysis of the deposited data

How the results depend on the processing

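The alternatives were pseudocounts of 0.5 and 5, no filter and a filter at 50, factors from a trimmed mean of M values, quantile normalization, equal library totals, a replicate block, limma without a trend, and omission of every library singly. The trimmed-mean factors were computed from their definition and not with the package that offers them. Over all tested genes the number of calls ran from 4172 to 4746 when 1 library was left out and was 4261 without a trend. TXNIP kept its direction in all 15 settings (0.36 to 0.61 with 1 library left out) and ARRDC2 likewise (0.57 to 0.90). The TXNIP call was lost without a trend (0.48), and TXNIP and ARRDC2 each missed the threshold in 3 of 15 settings; the cause was not tested. ARRDC3 and MLX passed and ARRDC4 and MLXIP did not pass in each of the 15. ARRDC1 ran from -0.023 to 0.20 with 1 library left out. MEMO1 (0.06) and HSD17B7 (0.03), which did not pass, also turned sign when 1 library was left out, running from -0.053 to 0.19 and from -0.055 to 0.16. The TXNIP to TXN ratio differed by 1.92 to 2.13 on the log2 scale with 1 library left out.

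Same-numbered libraries did not deviate together (correlations 0.02, 0.06 and 0.01), so the numbers were not taken as pairs. With the replicate block 5246 genes were called, and no call among the 7 genes changed; TXNIP had an adjusted p of 0.0220 and the exact p of the TXNIP to TXN difference was 0.25, the smallest that 3 pairs can give, in place of 0.1. Among 54 other named genes, 769 of 810 values in alternative settings kept their direction and side of the threshold. How far depth limits the calls was not tested. MLXIPL, below the filter, had values within a few steps of 0 in DMSO replicate 2 and the MB1-47 libraries. It was higher in DMSO replicates 1 and 3 (27.8 and 11.1).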

Other observations

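Genes other than TXNIP also carried the pair of CACGNG cores in a RefSeq promoter window. Among the 20 genes with the pair, TXNIP included, 16 were tested, of which 4 (25.0%) were higher and 2 (12.5%) lower. Over all 9774 tested genes with a promoter entry, 19.4% were higher and 21.3% lower, so the counts are a description beside that background. The median change of the 16 was 0.02. The higher genes were GFPT1 (1.36), the entry enzyme of hexosamine synthesis, HSPBAP1 (0.55), TXNIP (0.48) and STX12 (0.38). The lower genes were RAN (-1.34), a GTPase of nuclear transport, and HPF1 (-0.48). These genes were named after their values were seen.

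Tested genes with GTAAACA in a promoter window, as in TXNIP and ARRDC3, were higher in 29.6% of 355 cases and lower in 14.6%, with a median change of 0.17. Over all 9774 tested genes with a promoter entry, 19.4% were higher and 21.3% lower, with a median of 0.01. Of 1227 genes with the E-box CACGTG, 18.5% were higher and 28.7% lower. Genes with a CCAAT box (4243 tested) were higher in 19.6% of cases and lower in 21.7%, close to the shares over all these genes. Genes with a CACGNG core, which includes the E-box (4740 tested), were higher in 18.9% of cases and lower in 24.6%. These are descriptions of shares, and no test was made of them. The motifs were chosen after the promoters were seen, and whether FOXO factors act on these genes here was not tested.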
